A study of Mus musculus with 6 samples.

Results

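The insulin-like growth factor (IGF) genes were examined in mesangial cells cultured from mouse kidney, which hold the capillaries of the glomerulus together, with and without TGF-β1. The members were the rows of the deposited expression table whose symbol is Igf1, Igf2, Igf1r, Igf2r, Igfbp2, Igfbp3, Igfbp4, Igfbp5, Igfbp6 or Igfbp7. All 10 were found, with 1 row each, among 19730 rows, and they comprise 2 ligands, 2 receptors and 6 binding proteins. RNA-Seq was performed on 3 Control libraries and on 3 libraries of cells given TGF-β1 (transforming growth factor beta 1, a cytokine known for promoting fibrosis) at 10 ng/ml for 72 h. Both groups were of passage 3 to 6 and were kept in medium with 25.5 mM glucose and 20% serum. Serum itself carries IGFs and their binding proteins, and only the RNA of the cells was measured. The labels do not say whether the replicates came from separate cultures, so p-values describe the spread between these libraries, which may be technical. The design asks which of these genes change with the treatment.

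IGF1 and IGF2 are small secreted hormones related to insulin. They act mainly through the tyrosine kinase receptor encoded by Igf1r, which signals through the PI3K-AKT and RAS-MAPK routes to growth and survival. The receptor encoded by Igf2r has no kinase. It takes IGF2 to the lysosome, carries mannose 6-phosphate-tagged enzymes and binds latent TGF-β. The binding proteins hold IGFs outside the cell and are cut by proteases that release the ligand. In the kidney, IGFs act on mesangial cell growth and matrix production.

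Values are FPKM, fragments per kilobase of transcript scaled to the mapped total of the library, so levels are per length and can be set side by side between genes. Each row names 1 transcript, and it is not stated whether it holds the value of the whole gene. All members but Igfbp6 have more than 1 annotated transcript, so their levels and sums carry this limit. Depth, recovered from the steps between the lowest values, was 10130000 to 11050000 fragments per library. A change given as log2 is TGF-β1 minus Control after adding 1 to each FPKM, so that changes of weakly expressed genes are understated. Genes with a mean of at least 1 FPKM were tested with limma, and an adjusted p under 0.05 was called changed. The established TGF-β responses Ctgf, Smad7, Skil and Col1a1 were each called higher. Among markers of mesangial cells, Acta2 was at 997 ± 89.7 FPKM and Pdgfrb at 37.5 ± 4.82 FPKM in Control (SD, n = 3), whereas Itga8, Des and Thy1 had means of at most 0.271 FPKM in either group. With TGF-β1, Acta2 was called higher (3887 ± 348 FPKM) and Pdgfrb lower (29.2 ± 0.751 FPKM), and Gata3 was not called (1.76 and 1.03 FPKM). Cspg4 (0.0735 and 1.21 FPKM) and Rgs5 (0.0864 and 0.25 FPKM), both under the filter, were called higher in the fit without it. The 5 endothelial markers summed to at most 0.822 FPKM in any library and the leukocyte gene Ptprc had a mean of at most 0.029 FPKM. The 5 podocyte markers summed to 19.7 to 24.9 FPKM in Control and 12.6 to 13.7 FPKM with TGF-β1, and Wt1 was among those that fell. The 3 tubular markers with a row summed to 10.4 to 14.1 FPKM in Control, mostly Aqp1, and to 0.411 to 0.524 FPKM with TGF-β1. The 4 macrophage markers with a row summed to 8.19 to 9.58 FPKM in Control and 2.26 to 3.24 FPKM with TGF-β1, and most of that difference was in Csf1r (6.27 and 0.411 FPKM, called lower). Cd68 was not called (2.79 and 2.22 FPKM), and Itgam and Ptprc had means of at most 0.12 FPKM in either group. The part of these markers in the results below was not tested. The replicate 2 libraries stood apart, since in 45 tested protein-coding rows every other library was 2-fold or more above both of them, whereas no other pairing across the groups gave more than 4 such rows.

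TGF-β1 treatment lowered Igf1 and Igfbp4 and raised Igf2r, while Igf1r, Igfbp2, Igfbp6 and Igfbp7 were not called. These 7 members passed the filter on low values, and 3 of them were called changed, against 48.1% of the 11898 rows tested. In direction, 1 was called higher (24.5% of all tested rows) and 2 lower (23.6%). Igfbp4 passed the filter only through its Control level (2.22 FPKM, against 0.309 FPKM with TGF-β1). These counts, and the count of members without overlap below, therefore depend in part on the filter. The remaining 3 members, Igf2, Igfbp3 and Igfbp5, lay under 1 FPKM on average. Fitted without the filter, Igfbp3 was called higher, against 14.6% of 19730 rows called higher in that fit, and Igf2 and Igfbp5 were not called. The groups did not overlap in 3 of the 7 tested members, Igf1, Igf2r and Igfbp4, against 59.4% of all tested rows, and they did not overlap in Igfbp3, which was under the filter. An exact permutation test of 3 against 3 libraries cannot give a two-sided p under 0.1, which each of these 4 members reached. In bulk RNA, fewer cells that make a transcript and less transcript per cell cannot be told apart.

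**Figure D1:**
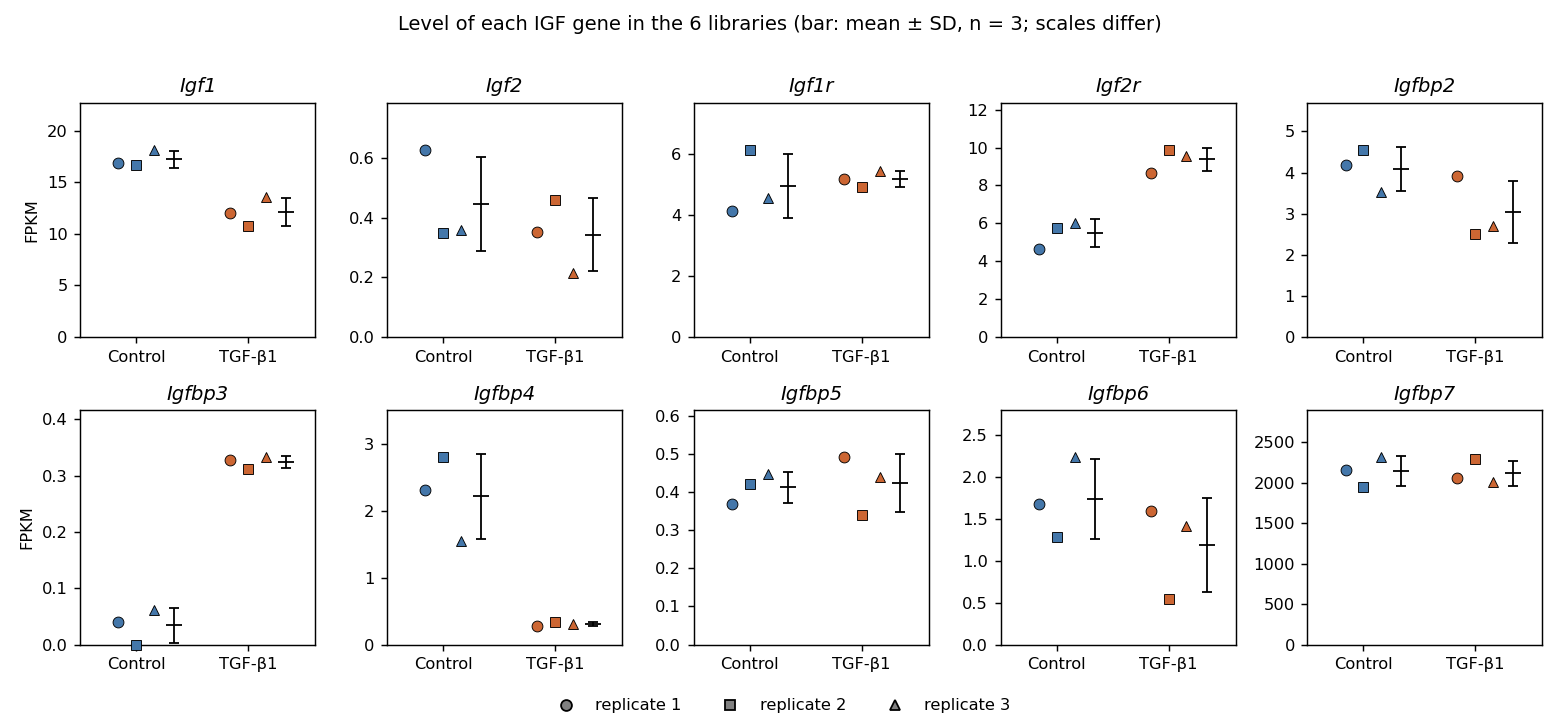
FPKM (linear axes that start at 0 and differ between panels) of the 10 IGF genes in the 3 Control (blue) and 3 TGF-β1 (orange) libraries; marker shapes give the replicate and bars the mean ± SD. The groups separate in Igf1, Igf2r, Igfbp3 and Igfbp4 and overlap in the other 6 genes.

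The 250 bases before the start of the row's transcript are shown for the tested members that changed, read from the mm9 genome, since the study also profiled DNA methylation, which is not analysed here. CpG dinucleotides, the sites of DNA methylation, are in capitals and each strand is that of the gene. Igf1 (chr10:87320760-87321009, plus strand) had 3 CpG and a GC content of 42.4%, Igfbp4 (chr11:98902308-98902557, plus strand) had 22 CpG and 69.2%, and Igf2r (chr17:12962531-12962780, minus strand) had 32 CpG and 71.6%.
Igf1: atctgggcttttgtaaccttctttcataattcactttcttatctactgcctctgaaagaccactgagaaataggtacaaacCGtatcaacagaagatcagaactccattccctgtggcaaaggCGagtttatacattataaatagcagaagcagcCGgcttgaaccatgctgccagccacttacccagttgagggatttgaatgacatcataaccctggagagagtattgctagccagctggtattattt
Igfbp4: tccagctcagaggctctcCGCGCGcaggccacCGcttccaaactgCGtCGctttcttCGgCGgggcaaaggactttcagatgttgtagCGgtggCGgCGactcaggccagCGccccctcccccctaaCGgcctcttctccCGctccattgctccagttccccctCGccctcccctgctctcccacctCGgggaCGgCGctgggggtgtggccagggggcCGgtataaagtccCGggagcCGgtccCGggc
Igf2r: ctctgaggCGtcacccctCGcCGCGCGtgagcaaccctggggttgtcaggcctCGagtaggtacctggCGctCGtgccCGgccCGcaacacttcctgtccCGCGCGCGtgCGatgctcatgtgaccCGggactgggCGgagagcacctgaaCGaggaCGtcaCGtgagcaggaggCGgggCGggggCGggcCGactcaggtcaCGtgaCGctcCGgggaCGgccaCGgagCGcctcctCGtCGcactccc
The median over 22375 protein-coding promoters of the same length was 8 CpG and a GC content of 54%, so Igf1 lay below and Igfbp4 and Igf2r above both medians. Igfbp3, Igf1r, Igfbp7, Igfbp2 and Igfbp5 also lay above both, with 33, 27, 26, 14 and 11 CpG, so most members did, whether called or not. The letters CAGAC, a core sequence bound by SMAD proteins, were searched on both strands (GTCTG on the other). They occurred in this window of Igf2 only, with 2 matches, and in 40.9% of all the promoters. The windows of all the promoters lie before the outermost annotated start of each gene, whereas member windows lie before the row's transcript. For Igf2 and Igfbp3 these differ. The Igf2 row's transcript starts at 149843401, inside the gene (149836673 to 149852721, minus strand). That of Igfbp3 starts at 7113900, inside the gene (7106089 to 7113926, minus strand), and its window overlaps 1 annotated exon. This sequence comparison was chosen after the expression values had been seen.

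Of the ligands, Igf1 was the more abundant. Igf1 (transcript ENSMUST00000122386, mm9 chromosome 10, 87321010 to 87399792) was at 16.9, 16.7 and 18.2 FPKM in Control replicates 1 to 3 and at 12.04, 10.8 and 13.6 FPKM in TGF-β1 replicates 1 to 3. Every treated library lay below every Control library. The mean fell from 17.2 ± 0.819 to 12.1 ± 1.40 FPKM (SD, n = 3). On the log2 scale the change was -0.48, with SE 0.101 and an adjusted p of 0.00939 by limma. These values rest on about 130 to 234 fragments per library. The row names 1 of 9 annotated transcripts, and it is not stated whether it holds the value of the whole gene. The start of the gene overlaps Gm16176 on the opposite strand, whose Control values lay between 0.0978 and 0.101 FPKM and whose treated values are all listed at 0. Such values lie near the floor, and fragments were not worked out for Gm16176. Its relation to Igf1 was not tested.

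The Igf2 row names 1 of 9 annotated transcripts, with a start inside the gene, and may not hold the whole gene. In that row Igf2, the main fetal ligand, was low. It was at 0.627, 0.349 and 0.359 FPKM in Control and at 0.353, 0.459 and 0.214 FPKM with TGF-β1, or about 8 to 24 fragments per library, and the groups overlapped. Fitted without the filter, the log2 change was -0.11, with a 95% interval of -0.37 to 0.16 (limma adjusted p 0.515). Without Control replicate 1 it was -0.017, and without TGF-β1 replicate 3 -0.035. Igf2 lies on chromosome 7 (149836673 to 149852721, minus strand), 72.6 kb from H19, the imprinted non-coding RNA that shares its control region. H19 was at 58.4, 77.2 and 58.4 FPKM in Control and at 0.743, 0.332 and 0.335 FPKM with TGF-β1. It fell by 5.48 on the log2 scale (SE 0.163, limma adjusted p 7.63e-06), and the Control mean was 138-fold the treated mean. The RNA-binding proteins named for IGF2 mRNA also had lower means. Igf2bp1 was at 4.10 ± 0.578 FPKM in Control and 2.78 ± 0.241 FPKM with TGF-β1, Igf2bp2 at 21.1 ± 2.25 against 15.7 ± 0.567 FPKM, and Igf2bp3 at 6.72 ± 0.575 against 4.99 ± 0.251 FPKM (SD, n = 3). All 4 genes of this list were called lower, as were 23.6% of all tested rows. In replicates 1 and 3 alone, and also without TGF-β1 replicate 1, 1 of the 4 was called, and without Control replicate 2 or TGF-β1 replicate 3 it was 2.

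The receptors differed in what was seen. Igf2r (ENSMUST00000024599, chromosome 17, 12875272 to 12962530, minus strand) was at 4.63, 5.78 and 6.02 FPKM in Control and at 8.68, 9.89 and 9.57 FPKM with TGF-β1. All treated libraries exceeded all Control libraries, and the mean rose 1.71-fold from 5.48 ± 0.742 to 9.38 ± 0.627 FPKM (SD, n = 3; log2 change 0.69, SE 0.114, limma adjusted p 0.00372). With about 445 to 899 fragments per library, it was the deepest measured member after Igfbp7. The gene overlaps Airn, the imprinted antisense RNA that silences the paternal Igf2r copy. Airn was at 4.15, 4.401 and 6.36 FPKM in Control and at 2.69, 4.49 and 3.66 FPKM with TGF-β1, and it was not called (adjusted p 0.174 by limma, log2 change -0.37). The sources used here do not say if reads were assigned by strand.

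Igf1r (ENSMUST00000005671, chromosome 7, 75097713 to 75371484), the signalling receptor, was at 4.14, 6.13 and 4.55 FPKM in Control and at 5.19, 4.91 and 5.42 FPKM with TGF-β1. The treated libraries fell inside the Control range. The log2 change was 0.07 (SE 0.14, limma adjusted p 0.714), with a 95% interval of -0.27 to 0.41. The ratio of Igf2r to Igf1r was 1.12, 0.942 and 1.32 in the Control libraries against 1.67, 2.01 and 1.76 in the treated libraries. It was higher in every treated library. No test was made of this ratio.

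Igfbp4 had the largest log2 change of the 10 members. It encodes a binding protein known mostly as an inhibitor of IGF action. Igfbp4 (ENSMUST00000017637, chromosome 11, 98902558 to 98913969) was at 2.32, 2.81 and 1.54 FPKM in Control and at 0.276, 0.339 and 0.311 FPKM with TGF-β1. Every treated library was far below every Control library, although the Control libraries differed among themselves. The mean was 2.22 ± 0.636 FPKM in Control and 0.309 ± 0.0318 FPKM with TGF-β1 (SD, n = 3), which is 7.20-fold lower, and the log2 change was -1.28 (SE 0.176, limma adjusted p 0.00171). About 139 fragments in the 3 Control libraries stood against 18.6 with TGF-β1, and the exact 95% interval of the fold from counting error alone was 4.38 to 12.2. Igfbp4 passed the filter only through its Control level. Without Control replicate 2 its mean fell under 1 FPKM and it was not tested, and in the fit without the filter it was still called there (adjusted p 0.00649 by limma, log2 change -1.15).

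Igfbp3, which encodes the main IGF carrier of serum, went the other way at a very low level. Igfbp3 (ENSMUST00000020702, chromosome 11, 7106089 to 7113926, minus strand) was at 0.0407 FPKM, listed at 0 and at 0.0614 FPKM in Control, and at 0.328, 0.311 and 0.333 FPKM with TGF-β1. In fragments, this is about 0.999, 0 and 1.47 in Control against 8.001, 7.01 and 7.997 with TGF-β1. The groups did not overlap, and the mean rose 9.52-fold from 0.034 to 0.324 FPKM. Summed fragments gave a ratio of 9.59, with an exact 95% interval of 2.93 to 104 from counting error alone. In the fit without the filter the log2 change was 0.36 (SE 0.0447, limma adjusted p 0.00227). With TGF-β1 the means of Igfbp3, Igfbp4, Igf2 and Igfbp5 lay within 0.309 to 0.424 FPKM.

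Igfbp7 dominated the family by level. It encodes a secreted protein of blood vessel and matrix that binds IGFs weakly. Igfbp7 (ENSMUST00000046746, chromosome 5, 77778265 to 77837070, minus strand) was at 2159, 1946 and 2313 FPKM in Control and at 2052, 2292 and 2005 FPKM with TGF-β1. The groups overlapped throughout, and the log2 change was -0.01 (SE 0.119, 95% interval -0.30 to 0.27, limma adjusted p 0.932). Its level stood above that of 99.7% of all rows in both groups. Polr2b overlaps its last bases on the opposite strand, at 19.9 to 27.9 FPKM.

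Igfbp2, Igfbp5 and Igfbp6 were not called. Igfbp2 (chromosome 1, 72871077 to 72899048), a carrier that also binds integrins, was at 4.19, 4.56 and 3.52 FPKM in Control and at 3.91, 2.50 and 2.70 FPKM with TGF-β1. TGF-β1 replicate 1 lay within the Control range and the other treated libraries below it. The log2 change was -0.34 (SE 0.163, 95% interval -0.74 to 0.05, limma adjusted p 0.127). Without TGF-β1 replicate 1 it was -0.49 and was called (limma adjusted p 0.0427). Igfbp6 (chromosome 15, 101974793 to 101979942), which prefers IGF2, was at 1.67, 1.29 and 2.24 FPKM in Control and at 1.597, 0.542 and 1.41 FPKM with TGF-β1. Replicate 2 was the lowest library in both groups, with about 5 fragments in TGF-β1 replicate 2. The groups overlapped (log2 change -0.34, SE 0.244, 95% interval -0.93 to 0.25, limma adjusted p 0.288). With replicate 2 as a batch term Igfbp6 was still not called (limma adjusted p 0.114). Without TGF-β1 replicate 2 the log2 change of Igfbp6 was -0.11, and without Control replicate 3 it was -0.21. Igfbp5 (chromosome 1, 72904506 to 72921458), which binds matrix, was at 0.368, 0.422 and 0.447 FPKM in Control and at 0.491, 0.34 and 0.441 FPKM with TGF-β1. Its groups overlapped, and without the filter the log2 change was 0.01 (95% interval -0.16 to 0.18, limma adjusted p 0.927). Igfbp2 and Igfbp5 are neighbours 5.46 kb apart on opposite strands.

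**Figure D2:**
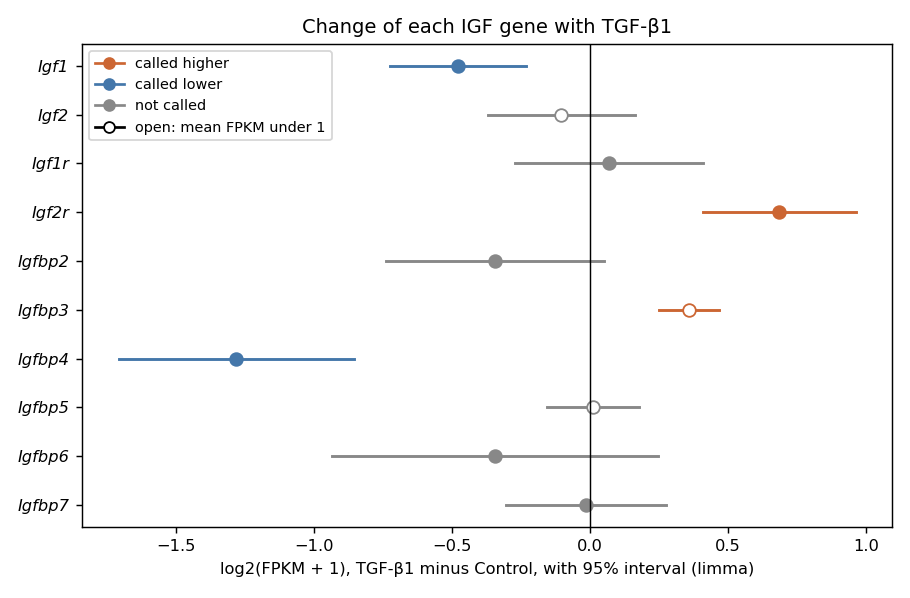
Difference in log2(FPKM + 1) between TGF-β1 and Control (x axis) with its 95% interval from limma for each of the 10 IGF genes; open symbols are the 3 genes under a mean of 1 FPKM, taken from the fit without the filter. Igf2r (0.69) and Igfbp3 (0.36) were called higher and Igfbp4 (-1.28) and Igf1 (-0.48) lower; the other 6 intervals include 0.

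The makeup of the binding protein transcripts was then described, as FPKM values that can be added per length. The 6 genes summed to 2148 ± 184 FPKM in Control and 2122 ± 153 FPKM with TGF-β1 (SD, n = 3). Igfbp7 made up 99.5% to 99.7% of the sum in Control and 99.7% to 99.8% with TGF-β1. The other 5 genes summed to 8.60, 9.07 and 7.81 FPKM in Control and to 6.60, 4.04 and 5.20 FPKM with TGF-β1, so that every treated library was lower. Within those 5, Igfbp4 held 27.0%, 30.9% and 19.8% in the Control libraries against 4.18%, 8.40% and 5.99% in the treated ones. Igfbp3 held at most 0.787% in Control and 4.97% to 7.71% with TGF-β1. Igfbp2 was the largest of the 5 in each library, at 45.0% to 50.2% in Control and 51.9% to 62.0% with TGF-β1. Its own mean was not higher with TGF-β1 (4.09 FPKM in Control and 3.04 FPKM treated, not called), so the larger share is of a smaller sum. No test was made of these sums and shares.

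**Figure D3:**
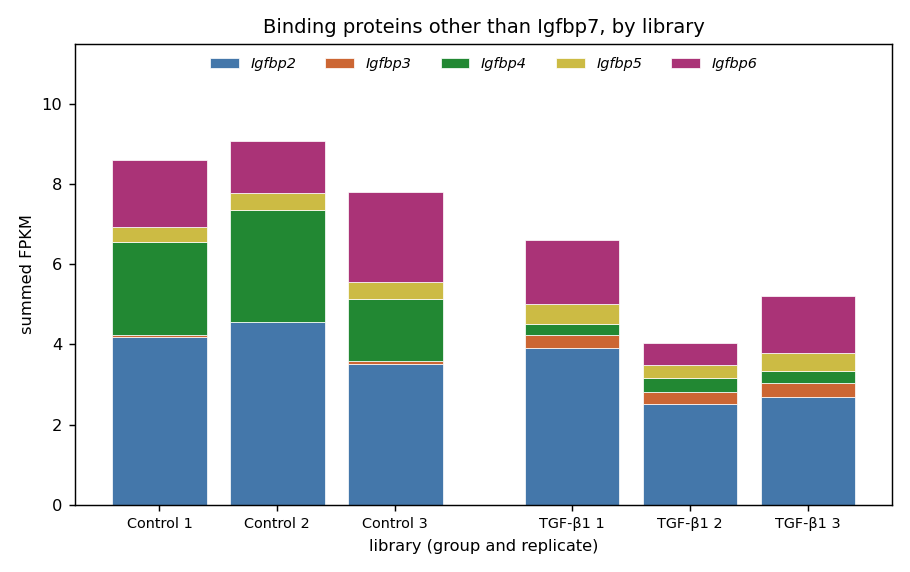
Summed FPKM (y axis, from 0) of the 5 binding protein genes other than Igfbp7 in each of the 6 libraries, with 1 color per gene. Control bars reach 7.81 to 9.07 FPKM and TGF-β1 bars 4.04 to 6.60 FPKM; the Igfbp4 block shrinks from 1.54 to 2.81 FPKM to 0.276 to 0.339 FPKM.

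By mean level, the order in Control was Igfbp7, Igf1, Igf2r, Igf1r, Igfbp2, Igfbp4, Igfbp6, Igf2, Igfbp5 and Igfbp3. The neighbours Igf2r and Igf1r, Igf1r and Igfbp2, Igfbp4 and Igfbp6, and Igf2 and Igfbp5 overlapped over the 3 libraries. With TGF-β1 the first 5 places were the same and Igfbp6, Igfbp5, Igf2, Igfbp3 and Igfbp4 followed. There the ranges of Igf2r and Igf1r were apart, and those of the last 4 genes overlapped from neighbour to neighbour. Igfbp4 moved from the sixth place to the last.

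Genes with the nearest pattern were sought for Igf2r and Igfbp4, by the root-mean-square difference of log2(FPKM + 1) over the 6 libraries after each row was centred on its own mean. For Igf2r these were 6330403L08Rik (0.0453), 1810055G02Rik (0.0493) and Zfp146 (0.0504). For Igfbp4 they were Gm3235 (0.0403), Acad12 (0.0591) and Cryz (0.0711). Adding 1 compresses low values, so nearness on this scale is not likeness in fold change. Mean FPKM in Control and with TGF-β1 was 7.95 and 2.65 for Gm3235, 3.17 and 0.662 for Acad12, and 24.6 and 10.1 for Cryz. For Igfbp4 it was 2.22 and 0.309. Gm3235 was at 8.45, 9.61 and 5.80 FPKM in Control and at 2.57 to 2.79 FPKM with TGF-β1. Gm3235, Acad12 and Cryz all shared the order of the Control libraries with Igfbp4. They were picked by nearness over these same libraries, so a shared order is no separate result.

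Genes that set how much IGF is free were described next. Of 10 such genes, 8 had a row and 4 passed the filter, and all 4 were called, 3 higher and 1 lower. Over all tested rows 48.1% were called. The other 4 with a row, Igfbpl1, Igfals, Pappa2 and Stc1, lay under the filter at no more than 0.123 FPKM in any library and were not called. The counts of called genes depend in part on the filter, since Pappa passed it only through the treated group. With TGF-β1 replicate 1, 2 or 3 left out, 3 genes of this list were called. Pappa encodes the protease that cuts IGFBP4. It was at 0.151, 0.109 and 0.12 FPKM in Control and at 1.98, 2.34 and 2.15 FPKM with TGF-β1, a 17.1-fold higher mean (log2 change 1.49, SE 0.121, limma adjusted p 2.15e-04), and it passed the filter only through the treated group. Stc2 encodes stanniocalcin, an inhibitor of that protease. It fell from 4.63 ± 0.138 to 1.45 ± 0.162 FPKM (SD, n = 3), with an adjusted p of 2.37e-04 by limma and a log2 change of -1.21. Adam12, a metalloprotease that cuts IGFBP3 and IGFBP5, rose from 3.73 ± 0.186 to 33.2 ± 1.49 FPKM (adjusted p 5.96e-06 by limma, log2 change 2.85). Htra1, a serine protease of matrix and binding proteins, rose from 16.8 ± 2.98 to 80.9 ± 5.401 FPKM (adjusted p 7.66e-05 by limma, log2 change 2.21). Igfbp1 was not analysed here.

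Growth hormone induces Igf1 in many tissues, and 5 of the 8 genes of that axis were called, all lower, against 48.1% of all tested rows called and 23.6% called lower. The median log2 change of the 8 was -0.63. The relation of these genes to the lower Igf1 level was not tested. Ghr, the growth hormone receptor, fell from 61.5 ± 2.26 to 41.2 ± 1.21 FPKM (SD, n = 3). Of the transcription factors it activates, Stat5a fell from 3.99 ± 0.342 to 1.59 ± 0.233 FPKM and Stat5b from 4.65 ± 0.325 to 2.52 ± 0.245 FPKM. The feedback inhibitor Cish was at 14.2, 17.3 and 10.1 FPKM in Control and at 3.47, 4.59 and 3.75 FPKM with TGF-β1 (log2 change -1.57, SE 0.198, limma adjusted p 0.00122). Socs3, also a feedback inhibitor, fell from 14.4 ± 0.544 to 4.96 ± 1.47 FPKM. Socs1, Socs2 and Jak2 were not called, and their means were higher with TGF-β1. In Control and with TGF-β1 these were 2.14 and 2.98 FPKM for Socs1 and 16.0 and 19.1 FPKM for Socs2. For Jak2 they were 6.77 and 8.56 FPKM (limma adjusted p 0.0546). In replicates 1 and 3 alone 6 of the 8 were called, as also without Control replicate 3 and without TGF-β1 replicate 2.

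Next to the receptor, 11 of 14 genes were tested and 6 were called, 2 higher and 4 lower, with a median log2 change of -0.19; the share called over all tested rows was 48.1%. Grb14, an adaptor that inhibits insulin receptor signalling, fell most, from 40.0, 42.8 and 59.3 FPKM in Control to 9.52, 11.7 and 7.19 FPKM with TGF-β1 (log2 change -2.21, SE 0.210, limma adjusted p 3.78e-04). Sos2, an exchange factor for RAS, had the largest called increase on the log2(FPKM + 1) scale among the tested genes of the list, from 6.03 ± 0.362 to 8.63 ± 0.851 FPKM (SD, n = 3), with an adjusted p of 0.011 by limma and a log2 change of 0.45. Shc1, Gab1 and Ptpn1 fell and Ptpn11 rose. Insr, the insulin receptor, was not called (4.79 ± 0.587 and 3.91 ± 0.450 FPKM, limma adjusted p 0.155), nor was the docking protein gene Irs2 (0.996 ± 0.219 and 1.23 ± 0.422 FPKM, limma adjusted p 0.557). Irs1, under the filter, was at 0.253 to 0.560 FPKM in Control and 0.717 to 0.827 FPKM with TGF-β1, and was called at the margin (limma adjusted p 0.0494). That call was lost in 10 of 13 alternatives, with adjusted p-values of 0.0284 to 0.168 over them.

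Downstream, 24 of 25 genes of the PI3K, AKT, FOXO and mTOR list were tested, with 7 called higher and 4 lower (median log2 change 0.17). Pik3cb, a catalytic subunit of PI3K, rose from 2.92 ± 0.273 to 10.9 ± 0.826 FPKM (SD, n = 3), with an adjusted p of 8.09e-05 by limma and a log2 change of 1.603, and its regulatory subunit gene Pik3r1 fell from 8.48 ± 0.985 to 3.88 ± 0.0911 FPKM (adjusted p 6.59e-04 by limma, log2 change -0.95). Of the RAS and MAPK list, 9 of 11 genes were tested, with 3 called higher and 3 lower (median -0.23). Map2k1, the kinase of ERK, rose from 23.2 ± 3.88 to 61.3 ± 2.90 FPKM (adjusted p 3.32e-04 by limma, log2 change 1.38), and the kinase gene Araf fell from 108 ± 15.8 to 52.4 ± 6.48 FPKM (adjusted p 0.00156 by limma, log2 change -1.03). In the PI3K, AKT, FOXO and mTOR list 11 of the 24 tested genes were called in all. Over the 6 lists, 36 of 60 tested genes were called, 15 higher and 21 lower. Of all tested rows, 48.1% were called, 24.5% higher and 23.6% lower, which are the shares to set beside these counts.

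**Figure D4:**
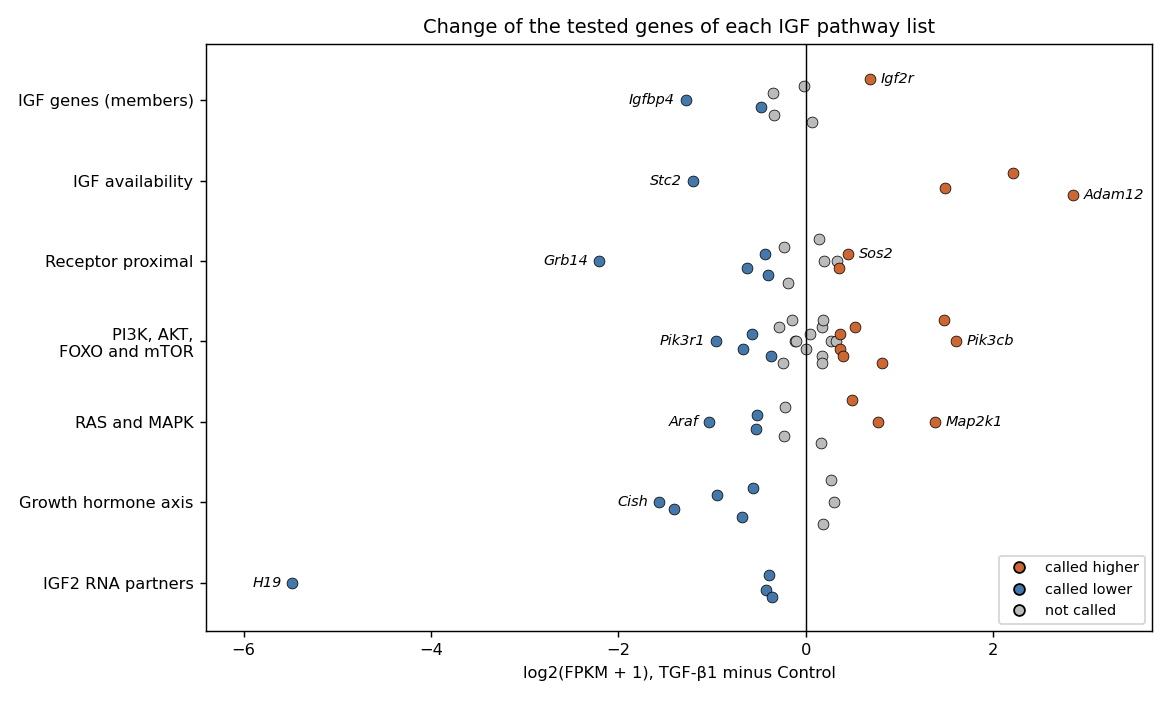
Difference in log2(FPKM + 1) between TGF-β1 and Control (x axis) for each tested gene of the IGF family and of the 6 pathway lists (y axis), colored by call; vertical offsets within a list only separate points, and the named genes are the extremes that were called. H19 (-5.48) and Adam12 (2.85) lie farthest out, and 5 growth hormone axis genes and all 4 IGF2 RNA partners were called lower.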

How the data were processed

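RNA-Seq of 3 Control and 3 TGF-β1 libraries was used. Per the published methods, the authors removed low-quality reads, aligned the rest to mm9 using TopHat, and obtained FPKM from Cufflinks. The submitters' processing notes list TopHat2 2.0.11, and the methods another version. Each deposited column holds the FPKM of 1 library, and no further normalization is stated. The authors used a count model (DESeq), and a table of counts was not used here.

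Groups and replicate numbers came from the labels, and 0 columns were unmatched. limma 3.58.1 in R 4.3.3 (lmFit, eBayes with trend) was run on log2(FPKM + 1) over 11898 rows with a mean of at least 1 FPKM, group only, two-sided, with Benjamini-Hochberg adjustment over all rows. Members under the filter came from the same fit on all 19730 rows. The fit was run on simulated data in which 200 rows changed by 1.5 on the log2 scale. That is far fewer rows than were called here, and a larger change than that of any member. The simulation therefore does not gauge the calls made here. Depth was the fragment total that brought FPKM under 0.6 in single-transcript genes nearest to whole fragments, with an assumed fragment length of 200 nt. Within 0.15 fragments, 99.4% to 99.8% of these values were whole. Fragments of members with several transcripts are approximate. Intervals from fragments cover counting error only. Positions are from GENCODE M1 on mm9. Of 72 pathway genes, 68 had a row and the other 4 are not analysed here. Genes named outside the members were the largest called change in each direction of each list and preset genes, plus further list members, Airn, Gm16176 and Polr2b chosen after their values were seen. The members and lists were chosen with earlier results of these data known. Protein sequences were not used here. Tables were made in Python 3.11.15 with pandas 2.3.3 and numpy 2.4.6, exact tests with scipy 1.17.1, and plots with matplotlib 3.10.9. A further gene of the treatment check is not reported here.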

Additional observations from a re-analysis of the deposited data

How the results depend on the processing

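Calls were recomputed under 15 alternatives. Igf1 and Igf2r, tested with the filter, and Igfbp3, without it, kept their direction and call in all of theirs (log2 changes of -0.56 to -0.40, 0.59 to 0.77 and 0.33 to 1.69), and Igfbp4 in each of the 13 that tested it (-2.47 to -1.17). The number of members called was 2 to 4, and 2 to 4 in the fits that left out 1 library. Without the filter 2 members were called higher, and at a mean of at least 3 FPKM 1 was called lower, since Igfbp4 was then not tested. Leaving out 1 library gave 1 to 3 members called lower, the low count without Control replicate 2 and the high count without TGF-β1 replicate 1. Of the 4 IGF2 RNA partners, 1 was called in replicates 1 and 3 only, and 1 to 4 with 1 library left out. In the fit on all rows, from which Igfbp3 was read, Igf1 was not called in replicates 1 and 3 only (adjusted p 0.0747 by limma) or without TGF-β1 replicate 1 (0.0562), nor Igf2r in replicates 1 and 3 only (0.0669). H19 was called in all 15 alternatives. Over all rows 4340 to 6026 were called.

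Among members that were not called, the sign turned in some fits. With 1 library left out, log2 changes of Igf1r ran from -0.029 to 0.21 (below 0 without Control replicate 1), of Igfbp5 from -0.023 to 0.054 (below 0 without Control replicate 1 or TGF-β1 replicate 1) and of Igfbp7 from -0.081 to 0.044 (above 0 without Control replicate 3, TGF-β1 replicate 1 or TGF-β1 replicate 3). Igfbp5 was at -0.0081 with upper-quartile scaling. The cause was not tested.

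Replicate numbers are shared between the groups. The deviations of same-numbered libraries from their group means had correlations across genes of 0.0921, 0.2317 and 0.0853, the highest for replicate 2. Among libraries with unlike numbers, Control replicate 1 and TGF-β1 replicate 3 were at 0.117, and the others lay between -0.194 and -0.016. The main fit used group only, and whether the numbers pair the libraries was not tested. With a replicate block 5391 rows were called, the members called numbered 3, and 2 of the 4 IGF2 RNA partners were called.

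Depth limits Igfbp3 most, at no more than 8.001 fragments per library, followed by Igfbp6 and Igfbp4, whose lowest libraries had about 5.02 and 5.73.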
